A study of Mus musculus with 25 samples.

Results

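The α-arrestins studied here are Txnip, Arrdc1, Arrdc2, Arrdc3 and Arrdc4, 5 of the 26394 genes named on the array, chosen because the array names their probes by these symbols. Each gene had 2 probes, and all 10 probes passed the filter behind the deposited table of 40561 probes. Expression was measured in perigonadal white adipose tissue of C57BL6/J male mice on 25 single-colour arrays. All mice had been fasted for 24 h and then refed for 18 h with chow and water containing 20% glucose. The ChREBPbeta line carries a CRISPR deletion of exon 1b of Mlxipl, which removes the β isoform of the glucose-activated transcription factor ChREBP. It gave 6 ChREBPbeta KO arrays and 7 ChREBPbeta WT arrays from wild type littermates. The ChREBPtotal line lacks both the α and the β isoform, and gave 5 ChREBPtotal KO arrays and 7 ChREBPtotal WT arrays labelled with the same line. Both deletions act in every tissue, the age of the mice is not given in the sources used here, and the whole depot was used, so that fewer cells of a type and less RNA per cell cannot be told apart.

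α-Arrestins are adaptor proteins with an arrestin fold that bring NEDD4-type ubiquitin ligases to membrane proteins and so direct those proteins to endosomes. Txnip also binds thioredoxin and lowers glucose uptake by driving glucose transporters off the cell surface, and Arrdc4 shares this effect on glucose uptake. Both are classic glucose-responsive genes, induced through the carbohydrate response element (ChoRE) that ChREBP and its relative Mondo A (Mlxip) bind together with Mlx. Arrdc3 binds β-adrenergic receptors, Arrdc1 sorts cargo into vesicles that bud from the plasma membrane, and Arrdc2 is a less studied member with the same adaptor design.

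Because Txnip and Arrdc4 are known ChoRE genes and Arrdc3 was the member that differed between genotypes, the 250 bases before the start site of these 3 genes are shown. They come from RefSeq on GRCm38.p6 and are written 5′ to 3′ on the strand of the gene, at chr3:96557707-96557956 on the plus strand for Txnip, chr7:68749239-68749488 on the minus strand for Arrdc4 and chr13:80883134-80883383 on the plus strand for Arrdc3. Capitals mark matches to the ChoRE consensus with at most 1 mismatch, to the E-box CACGTG, to the CCAAT box CCAAT and to the forkhead motif GTAAACA, each searched on both strands.
Txnip: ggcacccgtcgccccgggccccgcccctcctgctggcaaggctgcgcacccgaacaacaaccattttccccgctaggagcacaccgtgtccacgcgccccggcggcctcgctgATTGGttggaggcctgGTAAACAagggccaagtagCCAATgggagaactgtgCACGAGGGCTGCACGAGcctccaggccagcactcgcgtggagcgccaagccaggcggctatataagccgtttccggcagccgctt
Arrdc4: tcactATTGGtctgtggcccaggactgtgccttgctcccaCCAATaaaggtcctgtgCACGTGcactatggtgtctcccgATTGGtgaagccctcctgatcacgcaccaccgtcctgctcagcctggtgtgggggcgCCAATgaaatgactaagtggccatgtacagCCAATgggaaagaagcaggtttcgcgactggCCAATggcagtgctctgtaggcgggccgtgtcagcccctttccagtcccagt
Arrdc3: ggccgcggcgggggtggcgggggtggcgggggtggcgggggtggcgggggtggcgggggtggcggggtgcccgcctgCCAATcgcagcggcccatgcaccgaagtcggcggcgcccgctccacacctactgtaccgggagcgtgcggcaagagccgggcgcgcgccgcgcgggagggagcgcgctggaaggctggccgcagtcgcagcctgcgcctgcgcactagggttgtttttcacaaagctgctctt

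The Txnip window held a ChoRE match with 1 mismatch among the 10 fixed positions of the consensus, from position -85 to -69 relative to the start. A match this close occurred in 1.91% of 32851 promoter windows of the same length. The Txnip window also held 2 CCAAT boxes, found at least this often in 10.1% of windows, and 1 forkhead motif, found in 3.17%. The Arrdc4 window had no ChoRE match even with 2 mismatches. It held 1 E-box, found in 6.02% of windows, and 6 CCAAT boxes, a number reached in 0.0578% of windows. The Arrdc3 window, 76% G and C against a median of 52.4%, held 1 CCAAT box and a ChoRE match with 2 mismatches, a match present in 21.5% of windows. Arrdc2 had 3 CCAAT boxes and Arrdc1 none of these motifs. The capitals in the 3 windows did not overlap, and a match is a description of letters, not of a bound site.

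**Figure D1:**
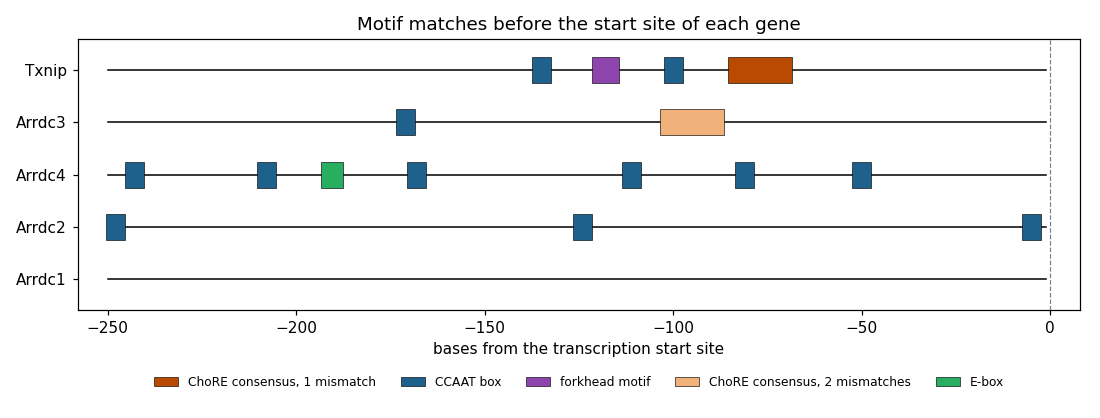
Motif matches in the 250 bases before the start site of the 5 genes; the horizontal axis is the distance in bases from the start site and each coloured box is 1 match, drawn to scale. The ChoRE match with 1 mismatch lies in Txnip and 6 of the CCAAT boxes lie in Arrdc4.

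The targeted gene, Mlxipl, had 3 probes, of which 2 were lower in ChREBPtotal KO. Its brightest probe, A_55_P2119957, averaged 15.07 in ChREBPbeta WT, 14.34 in ChREBPbeta KO, 15.98 in ChREBPtotal WT and 14.21 in ChREBPtotal KO on the log2 scale of normalized intensity used throughout. Mlxipl was thus lower in ChREBPtotal KO than in its WT (log2 difference -1.77, adjusted p = 1.11e-08). In ChREBPbeta KO the difference was -0.74 (adjusted p = 0.116), with KO and WT arrays not overlapping, and both KO groups did not differ by a called amount (-0.12, adjusted p = 0.617). Probe A_55_P2728555 gave -0.66 (adjusted p = 0.00103) in ChREBPtotal KO and -0.47 (adjusted p = 0.255) in ChREBPbeta KO. Probe A_55_P2045158 did not follow the labels, at 0.08 (adjusted p = 0.695) and -0.06 (adjusted p = 0.896). The tissue markers identified fat, with the 8 adipocyte markers averaging between 15.89 and 16.34 on every array. The 6 liver markers did not stay low: their mean per array ran from 12.84 to 16.41 in ChREBPbeta WT, from 11.30 to 15.87 in ChREBPbeta KO, from 7.95 to 13.60 in ChREBPtotal WT and from 7.35 to 8.56 in ChREBPtotal KO. All 6, Alb among them, were lower in ChREBPtotal WT than in ChREBPbeta WT. The epididymis marker Adam7, the 1 of 5 such markers in the table, reached 15.71 in ChREBPtotal WT. The liver marker mean therefore also served as a covariate. Its group means ran from 15.10 in ChREBPbeta WT to 7.85 in ChREBPtotal KO, so this covariate cannot separate liver RNA from line or genotype. Differences with the covariate are given for Arrdc3 and Txnip in ChREBPtotal KO and for Arrdc3 and Arrdc4 between the wild type groups.

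Of the 5 genes, Arrdc3 alone was called in the comparison of ChREBPtotal KO with its WT by its brighter probe, in which 8.79% of all probes were called, 5.35% higher and 3.44% lower. Differences come from a limma fit across all 40561 probes with wash batch as a term, and a gene was called at a Benjamini-Hochberg adjusted p below 0.05. None of the 10 probes was called in ChREBPbeta KO against its WT, where 0% of all probes were called, and where 9.02% had an unadjusted p below 0.05. None of the 10 probes reached that unadjusted level either.

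**Figure D2:**
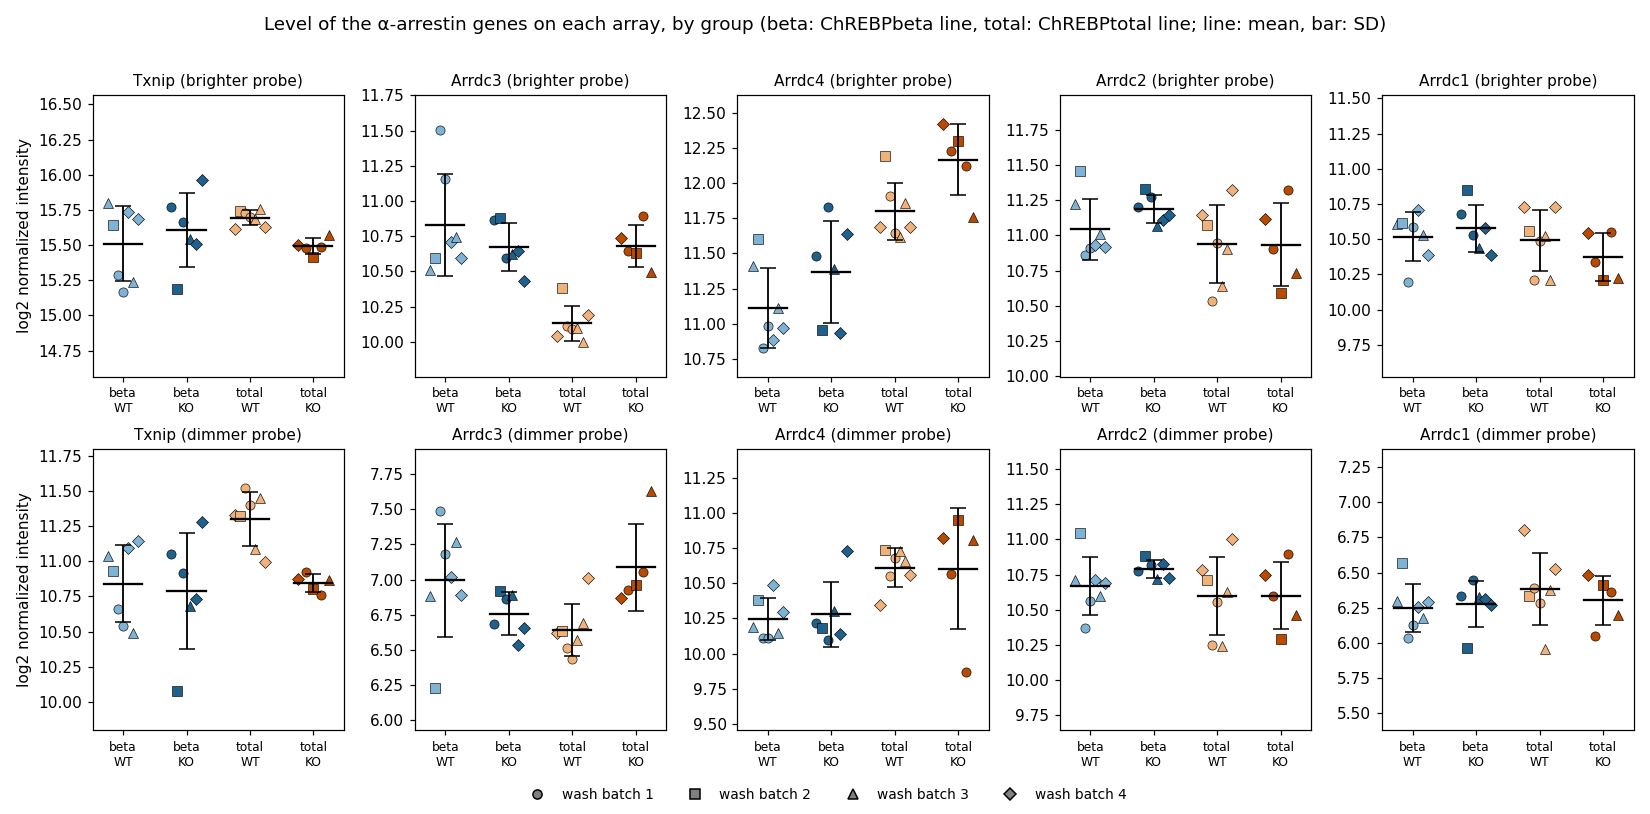
Level of each of the 5 genes on every array, as log2 normalized intensity on the vertical axis, in 4 groups, with the brighter probe of a gene above and the dimmer below. Points are arrays with a symbol for each wash batch, lines are means and bars SD. Each panel spans the same range of 2 log2 units. For Arrdc3 (brighter probe) the ChREBPtotal WT arrays lie below all others, and for Arrdc4 (brighter probe) they lie above all ChREBPbeta WT arrays.

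Arrdc3, the member linked to β-adrenergic receptors, was higher in ChREBPtotal KO than in ChREBPtotal WT on its brighter probe. Against either ChREBPbeta group the ChREBPtotal KO level was not called, as given below. Its brighter probe, A_55_P2845263, at chr13:81035204-81035263 of mm9, read 10.74, 10.65, 10.63, 10.89 and 10.49 in ChREBPtotal KO. In ChREBPtotal WT it had a lowest value of 10.0003, a median of 10.10 and a highest of 10.38. Every KO array thus lay above every WT array, and 6.8% of all probes separated the groups in this way in either direction. The fitted difference was 0.51 (SE 0.12, 95% confidence interval 0.26 to 0.76), a 1.42-fold higher level (adjusted p = 0.00729). Within the 4 wash batches the difference ran from 0.24 to 0.67, with a sign fixed by the lack of overlap. With any single array left out the fitted difference kept an adjusted p between 0.000896 and 0.0402. With the liver marker mean as a covariate the difference was 0.53 (adjusted p = 0.0282). After removal of group and wash batch means the level of Arrdc3 and the liver marker mean correlated with r = 0.0711 over 25 arrays. With the other marker lists r ran from -0.376 (endothelial) to 0.303 (kidney tubule), all given without a test.

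The dimmer Arrdc3 probe, A_52_P75584, gave a similar difference that was not called. Its values in ChREBPtotal KO were 6.87, 6.93, 6.96, 7.05 and 7.63, against a lowest of 6.44, a median of 6.62 and a highest of 7.01 in ChREBPtotal WT. The groups overlapped through a single WT array. The difference was 0.46 (SE 0.16, adjusted p = 0.0743), and it was positive in 4 of 4 wash batches. This probe lies at chr13:81028816-81028875 of mm9, and its raw intensity of 83 to 179 was nearer to the local background, at most 23, than that of the brighter probe, 926 to 2856. After removal of group and wash batch means, both Arrdc3 probes correlated with r = 0.634 across the 25 arrays, a description that carries no test.

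In the ChREBPbeta line the Arrdc3 difference had the opposite sign and was not called. The brighter probe ran from 10.51 through a median of 10.71 to 11.50 in ChREBPbeta WT, and from 10.43 through 10.63 to 10.88 in ChREBPbeta KO. The groups overlapped, and the difference was -0.18 (SE 0.11, 95% interval -0.41 to 0.05, adjusted p = 0.679). Within wash batches it was -0.60, 0.28, -0.01 and -0.11, with both high WT arrays, replicates 3 and 4, in the first batch. The difference between the effects of both deletions was itself called, at 0.69 (SE 0.16, adjusted p = 0.0177), where 3.21% of all probes were called. Without ChREBPtotal KO replicate 1 it was 0.63 (adjusted p = 0.0559). The dimmer probe gave 0.68 (SE 0.22, adjusted p = 0.106).

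On the brighter probe the order of the Arrdc3 groups placed ChREBPtotal WT apart from the rest. From high to low the means were 10.83 ± 0.36 (SD, n = 7) in ChREBPbeta WT, 10.68 ± 0.15 (SD, n = 5) in ChREBPtotal KO, 10.67 ± 0.17 (SD, n = 6) in ChREBPbeta KO and 10.13 ± 0.13 (SD, n = 7) in ChREBPtotal WT. The first 3 did not differ beyond their spread: neither neighbouring pair was called, at a difference of -0.19 between ChREBPtotal KO and ChREBPbeta WT (adjusted p = 0.274) and of -0.01 between both KO groups (adjusted p = 0.962). ChREBPtotal WT was lower than ChREBPbeta KO (log2 difference -0.52, adjusted p = 0.00204). In these 3 comparisons between the lines 21.3%, 18% and 23.6% of all probes were called. ChREBPtotal WT was also lower than ChREBPbeta WT (log2 difference -0.70, SE 0.11, adjusted p = 0.000136). The groups did not overlap, which fixes the sign in 4 of 4 wash batches. In that comparison of wild type mice 22% of all probes were called and 5.06% did not overlap. The liver markers differed by a median of -4.74, and the epididymis marker Adam7 was higher in ChREBPtotal WT by 3.74 (adjusted p = 0.0147). With the liver marker mean as a covariate the Arrdc3 difference was -0.66 (adjusted p = 0.0307). On the dimmer probe ChREBPtotal WT was lowest too, but the groups overlapped and neither difference was called. It gave -0.14 against ChREBPbeta KO (adjusted p = 0.53) and -0.36 against ChREBPbeta WT (adjusted p = 0.0804).

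Txnip was bright in all 4 groups and both its probes gave negative differences in ChREBPtotal KO that were not called. The brighter probe, A_66_P131361, at chr3:96365340-96365399 of mm9, had raw intensities from 26247 to 70992 with no spot saturated. It read 15.50, 15.48, 15.42, 15.49 and 15.57 in ChREBPtotal KO, against a lowest of 15.62, a median of 15.70 and a highest of 15.75 in ChREBPtotal WT. All KO arrays lay below all WT arrays, as they did for 2.88% of all probes, across a narrow gap. The difference was -0.18 (SE 0.12, 95% interval -0.42 to 0.06), and was not called (adjusted p = 0.418, and 0.551 with the liver marker mean as a covariate). Within the 4 wash batches it ran from -0.32 to -0.12, with a sign fixed by the lack of overlap. In a fit of these 2 groups alone it was -0.20 and was called (adjusted p = 0.0417).

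The spread of Txnip was unequal between the lines. Its SD was 0.27 in ChREBPbeta WT and 0.26 in ChREBPbeta KO, but 0.05 in ChREBPtotal WT and 0.06 in ChREBPtotal KO. The fit across all arrays uses 1 error estimate for the 4 groups. Over all probes the median SD differed far less, from 0.187 in ChREBPbeta WT to 0.141 in ChREBPtotal KO. The dimmer Txnip probe, A_55_P2006255, at chr3:96364206-96364265 of mm9, showed a larger difference. Its values were 10.87, 10.92, 10.80, 10.76 and 10.87 in ChREBPtotal KO, and ran from 10.99 through 11.33 to 11.52 in ChREBPtotal WT, again without overlap. This difference was -0.44 (SE 0.15, 95% interval -0.76 to -0.12, adjusted p = 0.082) and, without overlap, necessarily negative in 4 of 4 wash batches. Both Txnip probes varied together across arrays (r = 0.921 after removal of group and batch means, with no test).

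In mice without the β isoform Txnip spanned nearly the same range as in littermates. The brighter probe ran from 15.17 through 15.64 to 15.80 in ChREBPbeta WT and from 15.19 through 15.60 to 15.96 in ChREBPbeta KO. The groups overlapped almost fully, and the difference was 0.10 (SE 0.11, 95% interval -0.13 to 0.33, adjusted p = 0.859). The dimmer probe gave -0.06 (adjusted p = 0.952). Within wash batches the brighter probe gave 0.49, -0.46, 0.02 and 0.02. The effects of both deletions did not differ by a called amount, at -0.28 (SE 0.16, adjusted p = 0.515) for the brighter and -0.38 (SE 0.21, adjusted p = 0.505) for the dimmer probe. Between the wild type groups the brighter probe differed by 0.18 (adjusted p = 0.223) and the dimmer by 0.46 (adjusted p = 0.0221), both with higher values in ChREBPtotal WT. From high to low the brighter probe ranked ChREBPtotal WT, ChREBPbeta KO, ChREBPbeta WT and ChREBPtotal KO, and no pair of groups was called.

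**Figure D3:**
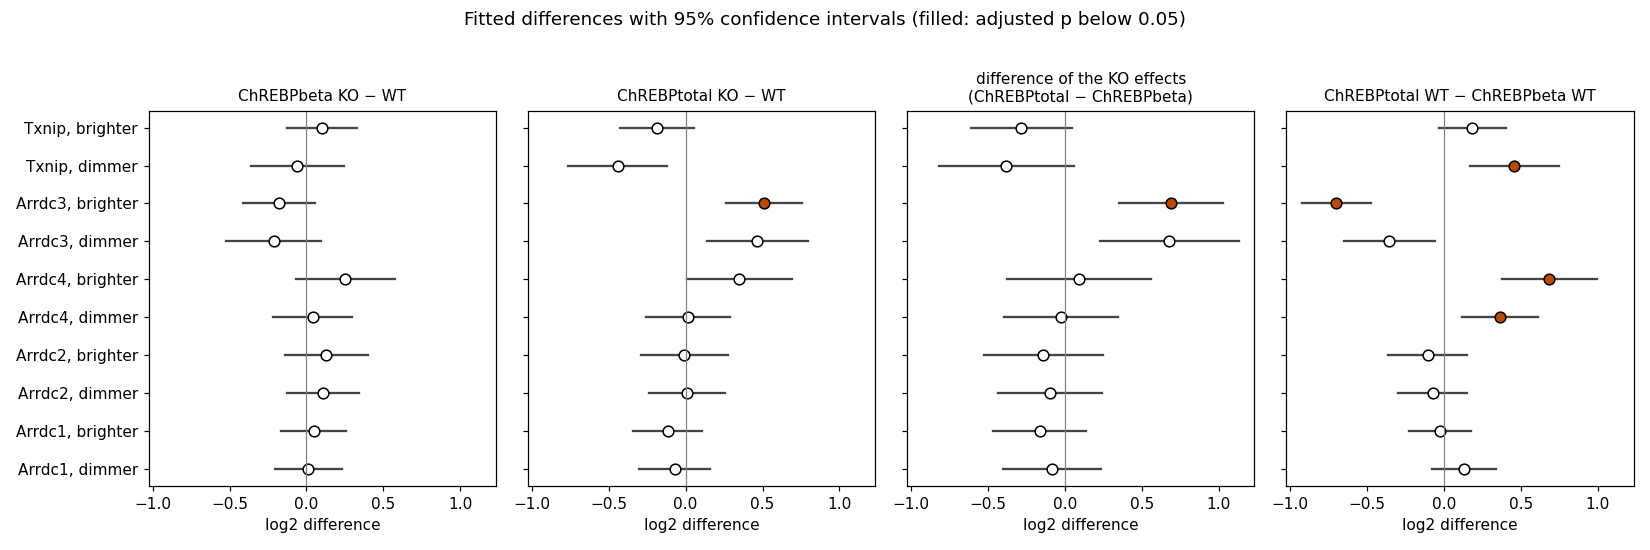
Fitted log2 differences of the 10 probes on the horizontal axis in 4 comparisons, with 95% confidence intervals; filled points have an adjusted p below 0.05. In ChREBPbeta KO against WT every interval includes 0, and in ChREBPtotal KO against WT the brighter Arrdc3 probe is filled.

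Arrdc4 separated the lines more than the genotypes. Its brighter probe, A_55_P2504175, lies at chr7:75886496-75886555 of mm9 and its dimmer probe, A_66_P122074, at chr7:75882043-75882102. The array's own annotation names transcript variant 2 for the brighter and variant 1 for the dimmer, and whether either probe reads that transcript alone was not tested. The brighter probe read 12.42, 12.23, 12.30, 12.12 and 11.76 in ChREBPtotal KO. It ran from 11.61 through 11.69 to 12.19 in ChREBPtotal WT, so that the groups overlapped with the KO arrays mostly higher. The difference was 0.35 (SE 0.16, 95% interval 0.01 to 0.69, adjusted p = 0.234) and positive in 4 of 4 wash batches. For the dimmer probe it was 0.01 (SE 0.13, adjusted p = 0.975), with 1 ChREBPtotal KO array at 9.87 and the other 4 between 10.57 and 10.95.

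In the ChREBPbeta line the brighter Arrdc4 probe ran from 10.83 through 10.98 to 11.60 in WT and from 10.93 through 11.43 to 11.83 in KO. The difference was 0.25 (SE 0.16, 95% interval -0.07 to 0.58, adjusted p = 0.671), and within wash batches it was 0.75, -0.65, 0.13 and 0.36. Both deletions thus had positive values on this probe, neither called, and their effects differed by 0.09 (SE 0.22, adjusted p = 0.951). Between lines the probe was 1.61-fold higher in ChREBPtotal WT than in ChREBPbeta WT (log2 difference 0.69, SE 0.15, adjusted p = 0.0023). The groups did not overlap, which fixes the sign in 4 of 4 wash batches, but the gap was narrow, 11.61 against 11.60. In that comparison 22% of all probes were called and 5.06% did not overlap. With the liver marker mean as a covariate the difference of the brighter probe was 0.87 (adjusted p = 0.0356). The dimmer probe was higher too, by 0.37 (adjusted p = 0.031), with overlapping groups. The group means of the brighter probe were 12.17 ± 0.25 (SD, n = 5) in ChREBPtotal KO, 11.80 ± 0.20 (SD, n = 7) in ChREBPtotal WT, 11.37 ± 0.36 (SD, n = 6) in ChREBPbeta KO and 11.11 ± 0.29 (SD, n = 7) in ChREBPbeta WT. Of the neighbours in this order, ChREBPtotal WT and ChREBPbeta KO differed, by 0.43 (adjusted p = 0.0481).

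**Figure D4:**
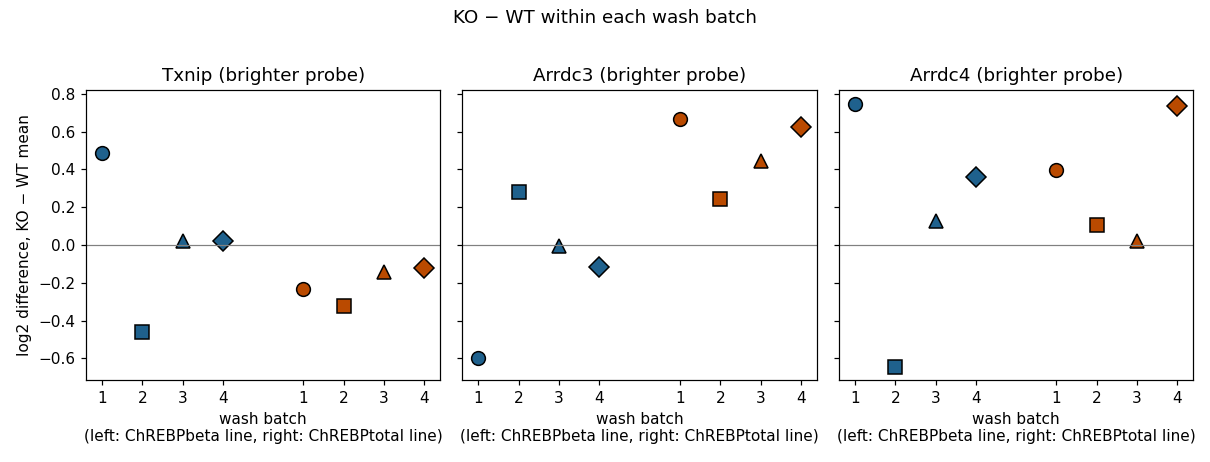
Difference between KO and WT means on the log2 scale within each of the 4 wash batches, for the brighter probes of Txnip, Arrdc3 and Arrdc4, with the ChREBPbeta line on the left of each panel and the ChREBPtotal line on the right. In the ChREBPtotal line all 4 batches lie below 0 for Txnip and above 0 for Arrdc3 and Arrdc4, whereas the ChREBPbeta batches fall on both sides. For Txnip and Arrdc3 in the ChREBPtotal line this sign follows from groups that did not overlap.

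Arrdc1 and Arrdc2 were not called for either deletion, for the difference of effects or between the wild type groups. The brighter Arrdc2 probe, A_55_P2088440, averaged between 10.93 and 11.19 in the 4 groups, and its difference was 0.13 (95% interval -0.14 to 0.40) in ChREBPbeta KO and -0.01 (95% interval -0.29 to 0.27) in ChREBPtotal KO. Its second probe, A_55_P1957922, shares 49 of 60 bases with the first and so is no separate measurement (r = 0.951 after removal of group and batch means). The brighter Arrdc1 probe, A_55_P1958280, averaged between 10.37 and 10.58, with differences of 0.05 (95% interval -0.16 to 0.26) in ChREBPbeta KO and -0.12 (95% interval -0.34 to 0.10) in ChREBPtotal KO. The dimmer Arrdc1 probe, A_55_P1958285, with raw intensities of 54 to 131, hardly followed it (r = 0.0742). No member probe shared a run of 20 bases with a probe named for another gene.

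Txnip and Arrdc4 were set beside other glucose-responsive genes measured on the same arrays, most of which were lower in ChREBPtotal KO. The list was chosen with earlier results of these data known. Its count is a description and sets no expected value for Txnip or Arrdc4. Of a list of 10 such genes without Txnip and Arrdc4, 8 were called lower in ChREBPtotal KO and 0 higher. Of all probes 3.44% were called lower and 5.35% higher. The median difference of the list was -1.29 against 0.02 over all probes. Hk2, the hexokinase that traps glucose in the cell, was among the 8 (log2 difference -1.54, adjusted p = 2.95e-08). Gpd1, which makes the glycerol backbone of triglycerides, gave -1.16 (adjusted p = 1.29e-08), the lipogenic gene Thrsp gave -0.95 (adjusted p = 3.66e-09), and the clock-linked repressor Bhlhe40 gave -1.76 (adjusted p = 3.9e-06). Between the wild type groups 7 of the 10 were called higher in ChREBPtotal WT and 2 lower, where 22% of all probes were called. The KO differences are thus measured from a wild type group that itself differed from ChREBPbeta WT. In ChREBPtotal KO against its WT the liver markers had a median of -2.01, and their part in the KO differences was not tested. The interval of Txnip on its brighter probe ended at -0.42 and on its dimmer probe at -0.76. That of Arrdc4 began at 0.01 on its brighter probe, which was not called (adjusted p = 0.234). On its dimmer probe it ran from -0.26 to 0.29. In ChREBPbeta KO, where 0% of all probes were called, 0 of the 10 were called, with a median of -0.14 against 0.02 over all probes.

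**Figure D5:**
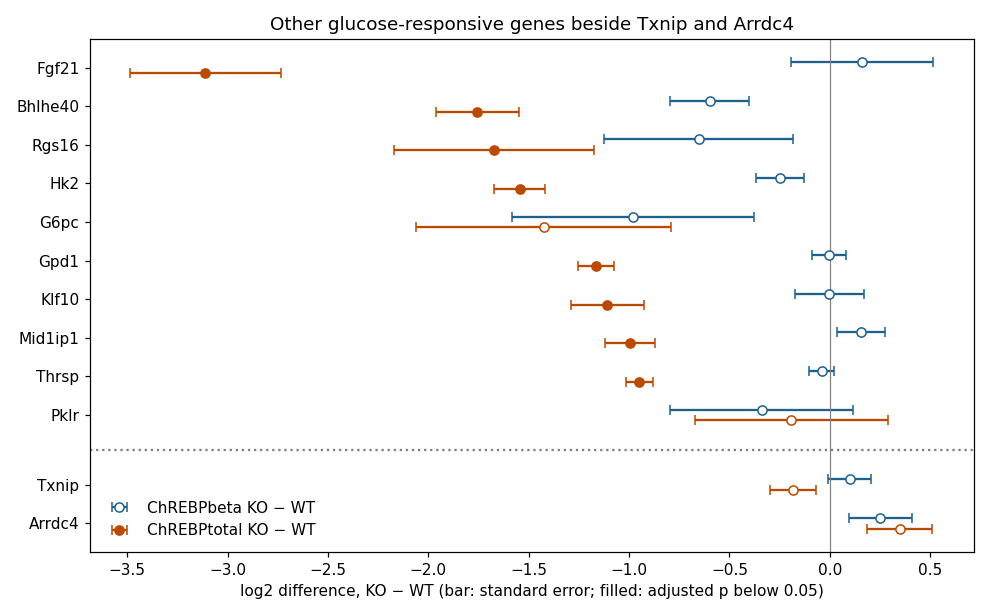
Log2 difference between KO and WT on the horizontal axis for 10 glucose-responsive genes, ordered by their value in the ChREBPtotal line, and for Txnip and Arrdc4 under the dotted line. Bars are standard errors and filled points have an adjusted p below 0.05. In the ChREBPtotal line 8 of the 10 are filled and below 0, where 3.44% of all probes were called lower. The list was chosen with earlier results of these data known. Txnip lies at -0.18 and Arrdc4 at 0.35, both on the brighter probe and not filled.

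Among the 10 genes of the Mlx network, which share or compete for the partners of ChREBP, 3 were lower and 1 higher in ChREBPtotal KO. Of all probes 3.44% were called lower and 5.35% higher. Beside Mlxipl, the targeted gene, these were Mlx, the obligate partner, at -0.57 (adjusted p = 0.0135), Max at -0.26 (adjusted p = 0.00236) and the repressor Mxd4 at 0.24 (adjusted p = 0.0168). The means of Mlx were 11.61 in ChREBPtotal KO, 12.17 in ChREBPtotal WT, 11.01 in ChREBPbeta KO and 11.14 in ChREBPbeta WT. Mlxip, which encodes Mondo A, gave -0.02 (adjusted p = 0.948), and its group means lay between 9.04 and 9.20. The network's median was -0.01. In ChREBPbeta KO none was called, as 0% of all probes were.

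Genes for proteins with which α-arrestins work were called about as often as all probes were, 3 of the 32 in 3 lists against 8.79%. Of 14 genes of the thioredoxin system, 1 was called in ChREBPtotal KO, the reductase Txnrd1 at -0.23 (adjusted p = 0.0337), with a list median of -0.06. Thioredoxin itself, Txn1, gave 0.20 (adjusted p = 0.149). Of 10 measured NEDD4-type ubiquitin ligases and adaptors, Smurf2 was called, at 0.43 (adjusted p = 0.00352), with a list median of 0.04. Of 8 measured arrestin-fold relatives, Dscr3, a subunit of an endosomal sorting complex, was called at 0.21 (adjusted p = 0.0425), and both β-arrestins, Arrb1 at -0.12 and Arrb2 at -0.08, were not. In ChREBPbeta KO 0 genes of these 3 lists were called, beside 0% of all probes.

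Of 12 genes for cargo and binding partners, 2 were called in ChREBPtotal KO, in opposite directions, where 8.79% of all probes were called. Adrb3, the β3-adrenergic receptor of adipocytes, was higher by 1.25 (SE 0.16, adjusted p = 1.06e-05), with means of 16.26 in ChREBPtotal KO, 15.01 in ChREBPtotal WT, 15.56 in ChREBPbeta KO and 15.73 in ChREBPbeta WT. Its groups thus ranked with ChREBPtotal WT lowest, as those of Arrdc3 did, and its effect differed between lines by 1.43 (adjusted p = 0.000266). Slc2a4, the insulin-responsive glucose transporter that Txnip internalizes, was lower in ChREBPtotal KO (log2 difference -1.40, SE 0.13, adjusted p = 1.32e-07). Its means were 14.86 in ChREBPtotal KO, 16.25 in ChREBPtotal WT, 15.20 in ChREBPbeta KO and 15.30 in ChREBPbeta WT. Slc2a1, the other transporter under Txnip control, gave 0.39 (adjusted p = 0.107). Adrb1, the β1-adrenergic receptor, gave -0.24 (adjusted p = 0.587). In ChREBPbeta KO 0 of the 12 were called, beside 0% of all probes.

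Glucocorticoids rise on fasting, so genes that respond to them were included. Of 8, Tsc22d3 at 0.52 (adjusted p = 0.0103) and Zbtb16 at 1.00 (adjusted p = 0.0298) were higher in ChREBPtotal KO and Sgk1 was lower, at -0.58 (adjusted p = 0.0192), with a list median of 0.33. In that comparison 5.35% of all probes were called higher and 3.44% lower. Among cell type markers in the same comparison, 2 of 8 adipocyte markers were called, Plin1 at 0.43 (adjusted p = 0.00256) and Cidec at 0.39 (adjusted p = 0.0136), both higher like Arrdc3. Macrophage, lymphocyte, endothelial, mesothelial and kidney tubule lists had 0 called genes, and 1 of 5 progenitor markers was called lower. All 6 liver markers had negative differences, from -3.89 to -1.85, of which Fgb was called (adjusted p = 0.0402), and the epididymis marker Adam7 gave -3.09 (adjusted p = 0.118). These were larger in size than the Arrdc3 difference of 0.51, and that of Plin1 was close to it. After removal of group and wash batch means, Txnip correlated with the marker lists from r = -0.378 (mesothelial) to r = 0.35 (endothelial). Arrdc4 did so from r = -0.388 (mesothelial) to r = 0.271 (epididymis). The part of these markers in the α-arrestin differences was not tested, since the liver covariate cannot separate liver RNA from group.

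The genes whose levels followed Txnip most closely over the 25 arrays, among 19946 named genes, were Coro1b (r = 0.752), Arhgap24 (r = 0.747), Xkr5 (r = 0.725), Gnaq (r = 0.701) and the clock gene Cry1 (r = 0.698). Once group and wash batch means were removed they were Ogfrl1 (r = 0.843), Virma, Med13 (r = 0.823), Catsper3 (r = 0.822) and Rab7 (r = 0.821). For Arrdc4 the nearest levels were those of Vdac2 (r = 0.915), Fam241a (r = 0.913), Vdac3 (r = 0.913), Hspa4 (r = 0.905) and Dis3 (r = 0.9). After removal of the means Tomm20 (r = 0.88), Arhgap24 (r = 0.864), Srsf7 (r = 0.845), 9630013D21Rik (r = 0.834) and 1500035N22Rik came first. Arhgap24 was near both. Txnip and Arrdc4 correlated with r = 0.285 in levels and r = 0.605 within groups, while Txnip and Arrdc3 ran in opposite directions, at r = -0.629 and r = -0.612. These arrays share their normalization, so the coefficients are descriptions and no test was made.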

How the data were processed

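Total RNA was labelled with Cy3 and hybridised to SurePrint G3 Mouse arrays, whose scans the authors quantified with Agilent Feature Extraction 10.10.1.1. Per the methods, the authors kept spots above background, quantile normalized the median pixel intensity and took the median over replicated probes. The deposited log2 values of 40561 probes, which correlated with the scanner's log2 median intensity at r = 0.9998 or more on every array, were analysed here; column medians were 7.957 to 7.962, and the spot intensity deposited for each array served for alternatives and detection. This use of the deposited values rather than a new normalization follows the rule by which the genes were chosen.

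Groups came from the sample titles. All 25 arrays entered 1 limma fit (limma 3.58.1, R 4.3.3) with group and wash batch, since the methods name no test for the arrays. The 4 wash batches each held all 4 groups, with 18 residual degrees of freedom, and 23 empty cells stayed empty. p-values were Benjamini-Hochberg adjusted over all probes and called below 0.05. Where a gene had several probes, its brightest one on average was taken to represent it. Probe positions are those of the array design on mm9. An mm9 gene annotation was not used here, so exon and UTR are not stated. Named genes were all members, the 5 nearest genes by correlation to Txnip and to Arrdc4, and up to 4 called genes of each list by adjusted p. Slc2a1, Txn1, Mlxip, Adrb1, Arrb1 and Arrb2 were named for their known function after their values were seen. The members and lists were chosen with earlier results of these data known. Promoter windows were taken from RefSeq GRCm38.p6. On data simulated from the real means, 92.5% of 200 probes changed by 1 log2 unit were recovered in the ChREBPbeta comparison and 90.5% in the ChREBPtotal comparison, over 40561 probes. Of the calls made on these data 4.15% and 8.59% were false, the second above the nominal level. The rates hold for changes of 1 log2 unit and say nothing of smaller ones. In the real ChREBPbeta comparison 0% of all probes were called, and the largest member difference was 0.25, on the brighter Arrdc4 probe. The study counts its replicates as animals, and each array was taken as 1 mouse. Between 73% and 77.9% of spots were well above background, arrays of a group correlated at 0.9704 to 0.9967, and the number of arrays limits the precision.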

Additional observations from a re-analysis of the deposited data

Results flagged for a closer look

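The effect of the deletion on Arrdc3 differed between the lines by 0.69 on the log2 scale in the test of the difference itself, on the brighter probe. On that probe both KO groups differed by -0.01 (adjusted p = 0.962) and the wild type groups by -0.70 (adjusted p = 0.000136). The dimmer probe gave 0.68 and was not called (adjusted p = 0.106). With 1 array left out the adjusted p of the brighter probe rose to as much as 0.0559. In 3 of the 40 sets formed by 1 probe and 1 group, an array lay far from the others of its group, where chance flags about 1 set in 20. The dimmer Arrdc1 probe was at 5.97 in ChREBPbeta KO replicate 3, with the next array at 6.27. The dimmer Arrdc3 probe was at 7.63 in ChREBPtotal KO replicate 7, with the next at 7.05. The dimmer Arrdc4 probe was at 10.73 in ChREBPbeta KO replicate 8, with the next at 10.30.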

How the results depend on the processing

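The 24 results were recomputed under 13 other settings and with each of the 25 arrays left out. Of 306 values from other settings 295 kept their direction and their side of the threshold, and of 600 values with an array left out 586 did. In a fit of only the compared groups Txnip became called in ChREBPtotal KO (-0.20, adjusted p = 0.0417; 0.0417 to 0.551 over all other settings), which made 2 called genes in place of 1. The difference of Txnip between the wild type groups became called with the processed signal (0.34, adjusted p = 0.0159) and with array quality weights (0.27, adjusted p = 0.0283). Values close to 0 changed sign: Arrdc2 in ChREBPtotal KO with the processed signal (0.00021), normexp (0.0015), array quality weights (0.038) and the compared groups alone (0.0084), and Arrdc1 between the wild type groups with the processed signal (0.0050) and the mean over probes (0.052). The cause of these moves was not tested. The liver marker covariate, added after seeing the data, changed no call, but its mean differed between the groups and so cannot separate liver RNA from group.

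With an array left out, Arrdc3 in ChREBPtotal KO ranged from 0.45 to 0.56 and Txnip from -0.21 to -0.15. The difference of effects ranged from 0.60 to 0.75 for Arrdc3 and from -0.065 to 0.20 for Arrdc4, and the number of called genes in it from 0 to 1. Arrdc2 in ChREBPtotal KO ranged from -0.12 to 0.12, Arrdc1 in ChREBPbeta KO from -0.010 to 0.10, and Arrdc1 between the wild type groups from -0.079 to 0.019.

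Equal replicate numbers did not pair the arrays. The deviations of same-numbered arrays correlated at -0.432 to 0.386 over 5 pairs in the ChREBPbeta line, at -0.24 to 0.135 over 4 pairs in the ChREBPtotal line and at -0.129 to 0.274 over 6 pairs of wild type arrays. With the replicate block the difference of effects of Arrdc4 was -0.086, and no call changed.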
